A study of Mus musculus with 12 samples.

Results

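The genes described here encode the glucose transporters of the kidney cortex, 7 facilitative transporters of the GLUT type (Slc2a1, Slc2a2, Slc2a3, Slc2a4, Slc2a5, Slc2a9 and Slc2a12) and 3 sodium-coupled transporters of the SGLT type (Slc5a1, Slc5a2 and Slc5a10). They are rows of the count table picked by symbol, from a list drawn up with earlier results of these data known, and make up 10 of the 37681 genes in the table of read counts. All 10 passed the filter on low counts and were among the 19399 genes tested. RNA came from a thin outer slice of kidney cortex of 3 TRACK mice (TG+), which carry the transgene gamma-HIF1alphaM3, and of 3 wild-type littermates without it (TG−). The transgene encodes a mutant, constitutively active HIF1α, the oxygen-regulated transcription factor, and is expressed in the proximal tubules. TG+ and TG− mice alike were untreated C57BL/6 males, 18 months old, and both kidneys of each mouse were sequenced, which gave 12 libraries. The 2 libraries of a mouse were summed, and CPM here means reads of a gene per 1000000 reads of the TMM-normalized library.

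GLUT proteins let sugars pass down their gradient, whereas SGLT proteins pull sugars into the cell together with sodium. In the early proximal tubule, SGLT2 (Slc5a2) takes up most of the filtered glucose at the luminal membrane and GLUT2 (Slc2a2) releases it on the blood side. The later part of the tubule uses SGLT1 (Slc5a1) and GLUT1 (Slc2a1). GLUT1 supplies glucose to cells that depend on glycolysis, and its gene is a textbook target of HIF1α.

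HIF1α binds DNA at a short core, ACGTG or GCGTG. RefSeq promoter windows, from 250 bases before to 50 bases after a gene's start, were at hand for 7 of the 10 genes, in 8 windows, while Slc2a3, Slc2a4 and Slc5a2 are only named here. The core stood, on either strand, in the windows of 2 genes, Slc2a1 and Slc5a1, and in 43.8% of all 32851 RefSeq windows. The 250 bases before the RefSeq start of these 2 genes are shown because they hold every match among the members' windows, with the matched letters in capitals. Both lie on the plus strand of GRCm38.p6, at chr4:119108495-119108744 and chr5:33103969-33104218.
Slc2a1: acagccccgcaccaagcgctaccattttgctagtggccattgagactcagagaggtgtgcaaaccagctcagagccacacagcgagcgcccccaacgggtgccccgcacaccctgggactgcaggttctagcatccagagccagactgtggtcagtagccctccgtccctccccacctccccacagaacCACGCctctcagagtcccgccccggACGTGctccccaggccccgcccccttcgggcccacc
Slc5a1: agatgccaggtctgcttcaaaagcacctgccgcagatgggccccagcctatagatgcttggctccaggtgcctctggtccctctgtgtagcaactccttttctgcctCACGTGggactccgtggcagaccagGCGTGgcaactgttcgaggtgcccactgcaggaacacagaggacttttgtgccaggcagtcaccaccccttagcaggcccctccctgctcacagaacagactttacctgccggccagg
In Slc2a1 the matches lay 61 bases (GCGTG, on the minus strand, printed here as its reverse complement CACGC) and 36 bases (ACGTG) before the RefSeq start. The Slc2a1 gene of GENCODE M21, whose position is given further on, starts at 119108711, so the last 34 bases printed lie inside that gene model. In Slc5a1 an ACGTG on each strand formed a single palindrome whose matches began 143 and 142 bases before the start, with a GCGTG 118 bases before it. ACGTG alone occurred in 19.6% of all windows. These matches are letters in a sequence, and binding was not measured.

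Depth lay between 21888584 and 33704850 counted reads per library and between 48052131 and 60506785 per mouse. The table's own Hif1a gene had 107, 103 and 103 CPM in the TG− mice 43-26, 43-50 and 43-76 and 91.7, 109 and 86.3 CPM in the TG+ mice 43-29, 43-49 and 43-75. These groups overlapped, and whether reads of the transgene count toward this gene is not given in the sources used here, so its level checks no label. All 10 markers of the early and all 6 of the late proximal tubule had enough reads to be tested.

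Of the glucose transporters, Slc2a1 and Slc5a10 rose in TG+ cortex by more than 2-fold, and Slc2a5 and Slc5a1 rose by less. The 2 transporters that lead the cortex by read count in TG− mice, Slc5a2 and Slc2a2, did not pass the test, and neither did Slc2a3, Slc2a4, Slc2a9 and Slc2a12. At the study's threshold, a fold change above 2 or below 0.5 with an adjusted p below 0.01 (quasi-likelihood test of edgeR, adjusted by Benjamini-Hochberg over all 19399 genes), 2 of 10 members were higher and 0 were lower. Among all genes tested, 3.77% were higher and 0.211% were lower at that threshold. On the adjusted p alone, 4 members were higher and 0 lower, where 7.91% of all genes were higher and 4.25% lower. At an unadjusted p under 0.05, 6 members were higher and 2 lower, where 21.9% of all genes tested were higher and 17.2% lower. The 4 members added by this looser limit were Slc2a2 and Slc2a3, higher in TG+ mice, and Slc2a12 and Slc5a2, lower. The DESeq2 Wald test placed 1 of these, Slc2a12, below 0.01 on the adjusted p, at 0.00366 with a log2 fold change of −0.32. The shares of all genes tested given here are also the background for the edgeR counts of each other list below.

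Every TG+ mouse lay above every TG− mouse for 5 members, and every TG+ mouse lay below every TG− mouse for 2. The same separations held for 23.4% and 20.8% of all genes tested. The median log2 fold change of the 10 members was 0.35, and that of all genes tested was 0.01. A test of single values over the 20 ways of assigning 3 against 3 mice cannot give an exact permutation p below 0.1. In bulk tissue, fewer cells of a type and less RNA per cell cannot be told apart.

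**Figure D1:**
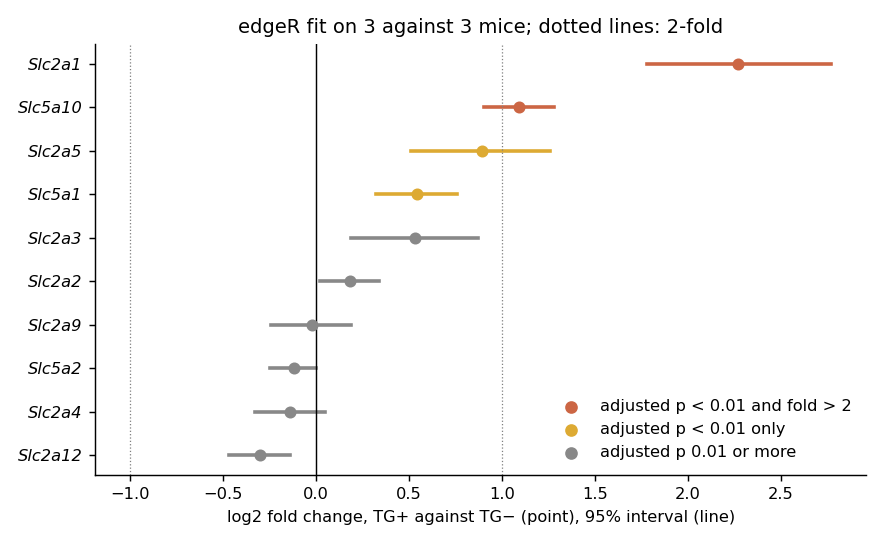
Log2 fold change of each glucose transporter gene in TG+ against TG− cortex (points) with its 95% interval (lines) from the edgeR fit on 3 against 3 mice. Slc2a1, at 2.27, and Slc5a10, at 1.09, are the genes past the 2-fold line with an adjusted p below 0.01.

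Among the facilitative transporters, Slc2a1 (GLUT1, chromosome 4, 119108711 to 119137983, plus strand of GRCm38) showed the largest change of the 10 genes. Its level was 42.4, 34.5 and 39.2 CPM in the TG− mice 43-26, 43-50 and 43-76 and 225, 124 and 212 CPM in the TG+ mice 43-29, 43-49 and 43-75. The groups did not overlap, and the TG+ mouse 43-49 stood well below the other two TG+ mice. The kidneys of a mouse lay close together, with the largest log2 difference, −0.09 for kidney 2 against kidney 1, in 43-76, so the gap between the TG+ mice was seen in both kidneys. The mean went from 38.7 ± 4.01 to 187 ± 54.5 CPM (SD, n = 3 mice each), 4.83-fold. The log2 fold change was 2.27 (SE 0.21, 95% interval 1.78 to 2.77), with an adjusted p of 0.000354 in edgeR. An antisense gene, Gm12868, shares 105 exon bases with Slc2a1, had 24 to 191 reads per library against 849 to 5955 for Slc2a1, and gave a log2 fold change of 2.30. Whether the counting used strand is not given in the sources used here, so reads of these 2 genes may not be told apart.

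GLUT1 is also abundant in endothelium, and red cells carry glucose transporters too. Of 6 tested erythroid markers, 1 passed the threshold, and 4 rose on the adjusted p alone, that gene among them. The count past the threshold was 0 in each of the 6 fits that leave out 1 mouse, and the count of 4 was 0 without 43-76, 1 without 43-26 and 2 without 43-29 or 43-49. The most abundant, Slc4a1 (the red cell anion exchanger), gave 0.19 on the log2 scale (edgeR adjusted p = 0.165). Hbb-bs at 0.83, Hbb-bt at 0.82 and Alas2 at 0.75, named after their values were seen, rose on the adjusted p alone without reaching 2-fold. The sum of the erythroid markers went from between 87.1 and 93.9 CPM in TG− to between 122 and 140 CPM in TG+ mice. Of 6 endothelial markers, 5 rose on the adjusted p alone, with a sum of 298 to 392 CPM in TG− and 514 to 544 CPM in TG+ mice. That count of 5 was 0 without 43-76, 1 without 43-75, 2 without 43-49 and 3 without 43-29. In each of the 6 fits that leave out 1 mouse, all 6 were higher at an unadjusted p under 0.05 in edgeR. At least 4 erythroid markers were so too. Calls over all genes also fell in these fits, from 732 higher past the threshold to 469 without 43-76. None of the 6 endothelial markers reached 2-fold, and the most abundant, Eng (endoglin), gave 0.44 (edgeR adjusted p = 0.013). Median log2 fold changes were 0.79 for the erythroid and 0.71 for the endothelial list, against 2.27 for Slc2a1. The part of these cells in the Slc2a1 level was not tested.

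Slc2a2 (GLUT2, chromosome 3, 28697903 to 28731359, plus strand) was the GLUT gene with the most reads in both genotypes. It had 242, 240 and 251 CPM in the TG− mice and 250, 285 and 292 CPM in the TG+ mice. The lowest TG+ mouse, 43-29, fell within the TG− range, so the groups overlapped. Means were 244 ± 5.71 and 276 ± 22.7 CPM (SD, n = 3), a log2 fold change of 0.18 (SE 0.07, 95% interval 0.02 to 0.34) and an edgeR adjusted p of 0.1. The interval leaves room for a change of up to 0.34 on the log2 scale, well short of that of Slc2a1. In the TG+ mice 43-49 and 43-75, kidney 2 exceeded kidney 1 by 0.25 and 0.22 on the log2 scale, which is more than the log2 difference between the genotypes.

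Slc2a5 (GLUT5, the fructose transporter, chromosome 4, 150119283 to 150144169, plus strand) had 66.7, 80.7 and 83.8 CPM in the TG− mice and 123, 182 and 123 CPM in the TG+ mice. The groups did not overlap in mice or in single libraries, and here 43-49, the lowest TG+ mouse for Slc2a1, was the highest. Among the 3 TG+ mice, 43-49 was also the highest for 4 of 6 markers of the late segment S3 and the lowest for the other 2, and it was the highest for 5 of 6 markers of the loop and distal tubule. It was the highest for 5 of 6 adipocyte and 4 of 5 muscle markers too. Of 10 early proximal tubule markers it was the lowest for 6 and the highest for 2. Without 43-49 the log2 fold change of Slc2a5 was 0.67 (edgeR adjusted p = 0.00554). Means were 77.0 ± 9.12 and 143 ± 33.7 CPM (SD, n = 3), or 1.85-fold. The log2 fold change was 0.89 (SE 0.16, 95% interval 0.51 to 1.26) and the edgeR adjusted p was 0.00664, so Slc2a5 passed the adjusted p but not the 2-fold limit. The adjusted p was above 0.01 without 43-26 (0.0212), 43-50 (0.021), 43-76 (0.0213) or 43-75 (0.0117), with log2 fold changes of 0.67 to 0.97 over the 6 fits that leave out 1 mouse.

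Slc2a12 (GLUT12, chromosome 10, 22645011 to 22704285, plus strand) had 27.9, 27.3 and 25.6 CPM in the TG− mice and 20.5, 21.6 and 23.5 CPM in the TG+ mice. Every TG+ mouse lay below every TG− mouse, although single libraries overlapped. The log2 fold change was −0.30 (SE 0.07, 95% interval −0.47 to −0.14), with an edgeR adjusted p of 0.0186 that misses 0.01. Slc2a12 shares 407 exon bases with Tbpl1 on the opposite strand, which gave a log2 fold change of 0.01.

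Slc2a9 (GLUT9, a urate transporter, chromosome 5, 38349273 to 38503143, minus strand) had 19.9, 23.0 and 25.6 CPM in the TG− mice and 22.6, 23.4 and 21.5 CPM in the TG+ mice. The TG+ mice lay inside the TG− range. The log2 fold change was −0.02 (SE 0.09), and its 95% interval of −0.24 to 0.19 bounds a change in either direction (edgeR adjusted p = 0.882). Its sign turned under 2 of the 15 alternatives. Among 6 tested genes of urate handling, 2 fell on the adjusted p alone and 0 passed the threshold, as in the DESeq2 Wald test, where 4 fell on the adjusted p alone. The count of 2 was 1 in each fit that leaves out 1 mouse, other than 43-49. In edgeR 1 gene was higher and 4 were lower at an unadjusted p under 0.05. The most abundant was Slc22a12, the apical urate exchanger, with 1690 ± 43.7 CPM in TG− and 1113 ± 103 CPM in TG+ mice (SD, n = 3), a log2 fold change of −0.60 and an edgeR adjusted p of 0.0013. The other, named after its value was seen, was Slc17a3, a sodium phosphate cotransporter family member that carries urate, at −0.31 (edgeR adjusted p = 0.00533).

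Slc2a4 (GLUT4, the insulin-responsive transporter of fat and muscle, chromosome 11, 69942539 to 69948188, minus strand) had 23.6, 25.6 and 25.3 CPM in the TG− mice and 21.0, 25.1 and 21.6 CPM in the TG+ mice. The groups overlapped through 43-49, and the log2 fold change was −0.14 (SE 0.08, 95% interval −0.33 to 0.05, edgeR adjusted p = 0.247). Without 43-49 it was −0.23 (edgeR adjusted p = 0.045). Adipocyte markers other than Fabp4, which endothelium also expresses, summed to 10.6, 30.7 and 18.9 CPM in 43-50, 43-49 and 43-75 and to at most 0.182 CPM in the other 3 mice. Of 6 adipocyte markers, 1 rose on the adjusted p alone, Fabp4 (a fatty acid binding protein), with 20.9 ± 0.536 and 36.6 ± 7.74 CPM (SD, n = 3). That count of 1 was 0 without 43-26, 43-50, 43-76 or 43-75 and 2 without 43-29. It was also 2 with a block for the 3 pairs of mice in the deposited table's name, of which 43-49 and 43-50 are 1. With that block 1 adipocyte marker passed the threshold and all 6 were higher at an unadjusted p under 0.05 in edgeR, against 2 without it. Of 5 tested muscle markers, which also mark vessel walls, 0 were called in edgeR, 2 had an unadjusted p under 0.05, and the DESeq2 Wald test called 1 on its adjusted p. With a block for the 3 pairs of mice that the submitters name, and with each kidney as its own library, edgeR called 2 on the adjusted p alone. The most abundant of these, Acta2 (smooth muscle actin), gave a log2 fold change of 0.71 (edgeR adjusted p = 0.065). Within each genotype the mice with the most adipocyte marker RNA, 43-50 and 43-49, also had the highest Slc2a4. In TG− mice the margin was small, 25.6 against 25.3 CPM in 43-76, while the kidneys of 43-50 held 26.9 and 23.9 CPM. In TG+ mice, 43-75, with 18.9 CPM of the adipocyte markers other than Fabp4, had 21.6 CPM of Slc2a4 against 21.0 CPM in 43-29. The part of fat in the Slc2a4 level was not tested.

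Slc2a3 (GLUT3, the transporter of neurons and of some blood cells, chromosome 6, 122727809 to 122801640, minus strand) was barely present, with 34 to 79 reads per library. It had 1.72, 1.65 and 1.60 CPM in the TG− mice and 2.37, 2.72 and 2.09 CPM in the TG+ mice. The groups did not overlap, and the log2 fold change was 0.53 (SE 0.15, 95% interval 0.19 to 0.87), but the edgeR adjusted p of 0.0323 missed 0.01. Of 7 myeloid markers, 4 rose on the adjusted p alone, and the sum was 92.7 to 119 CPM in TG− and 159 to 182 CPM in TG+ mice. That count of 4 was 1 without 43-76, 43-29 or 43-75 and 2 without 43-26 or 43-50. At least 5 of the 7 were higher at an unadjusted p under 0.05 in edgeR in each fit that leaves out 1 mouse. The most abundant, Csf1r (the receptor for the macrophage growth factor), gave a log2 fold change of 0.63 (edgeR adjusted p = 0.000661). The part of these cells in the Slc2a3 level was not tested.

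**Figure D2:**
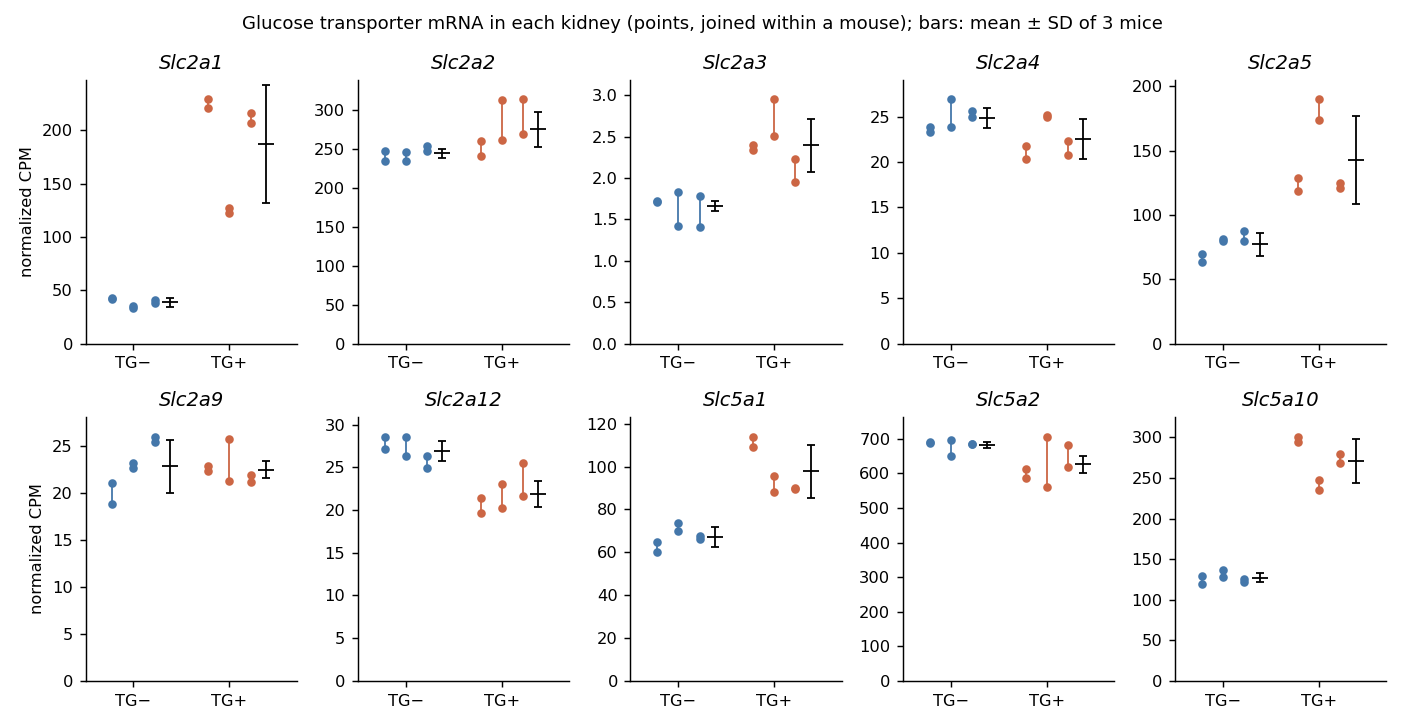
Normalized CPM of the 10 genes in each kidney (points, joined within a mouse), with the mean ± SD of 3 mice per genotype as black bars and each vertical axis starting at 0. TG+ libraries lie wholly above TG− libraries for Slc2a1, Slc2a3, Slc2a5, Slc5a1 and Slc5a10. The 2 libraries of a mouse are not independent, and the share of all genes with such libraries was not worked out. By mouse, the same 5 genes are separated upward, as are 23.4% of all genes tested.

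Among the sodium-coupled transporters, Slc5a10 (SGLT5, a carrier of mannose and fructose found mainly in kidney, chromosome 11, 61672781 to 61720826, minus strand) had the smallest p of all 10 members in this fit, though not in every alternative. It had 124, 134 and 124 CPM in the TG− mice and 297, 242 and 274 CPM in the TG+ mice. The groups were far apart relative to their spread, and 43-49 was again the lowest TG+ mouse. Means were 127 ± 5.35 and 271 ± 27.9 CPM (SD, n = 3), or 2.13-fold. The log2 fold change was 1.09 (SE 0.08, 95% interval 0.90 to 1.28) and the edgeR adjusted p was 0.00013. The interval includes values below 2-fold, so the call rests on the adjusted p and on the fitted fold. Slc5a10 shares 393 exon bases with Fam83g and 4 with Grap, both on the opposite strand. Fam83g, with 1282 to 2400 reads per library against 2986 to 7916 for Slc5a10, gave a log2 fold change of 0.62 (edgeR adjusted p = 0.00186), and how shared reads were assigned is not given in the sources used here.

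Slc5a1 (SGLT1, the high-affinity glucose and galactose carrier, chromosome 5, 33104219 to 33162870, plus strand) had 62.5, 72.1 and 66.8 CPM in the TG− mice and 112, 91.9 and 89.7 CPM in the TG+ mice. The groups did not overlap in mice or in single libraries. Means were 67.1 ± 4.79 and 97.8 ± 12.1 CPM (SD, n = 3), a 1.46-fold difference with a log2 fold change of 0.54 (SE 0.10, 95% interval 0.32 to 0.76). The edgeR adjusted p of 0.00579 passed 0.01, and the fold did not reach 2. The adjusted p was above 0.01 in 5 of the 6 fits that leave out 1 mouse, at 0.0196 without 43-26, 0.0118 without 43-50, 0.0271 without 43-76, 0.0109 without 43-49 and 0.012 without 43-75, with log2 fold changes of 0.43 to 0.59.

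Slc5a2 (SGLT2, the bulk glucose carrier of the early proximal tubule, chromosome 7, 128265657 to 128272430, plus strand) had 690, 672 and 685 CPM in the TG− mice and 600, 628 and 650 CPM in the TG+ mice. Every TG+ mouse lay below every TG− mouse. The gap was small, with means of 682 ± 9.46 and 626 ± 25.0 CPM (SD, n = 3), a log2 fold change of −0.12 (SE 0.05, 95% interval −0.25 to −0.0022) and an edgeR adjusted p of 0.122. By library size alone the log2 fold change of Slc5a2 was −0.01 (edgeR adjusted p = 0.954), and in kidney 1 and kidney 2 alone it was −0.19 (0.0647) and −0.04 (0.679). Single libraries overlapped, since the kidneys of 43-49 held 561 and 706 CPM, a log2 difference of 0.33 within 1 mouse. Slc5a2 shares 597 exon bases with BC017158, which gave a log2 fold change of −0.09 (edgeR adjusted p = 0.228).

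Markers of the early proximal tubule (segments S1 and S2) had fitted log2 fold changes below 0 for 10 of 10 genes, with a median log2 fold change of −0.33. Of these 10, 1 passed the threshold, Slc22a6 (the organic anion transporter OAT1), from 1642 ± 91.7 to 771 ± 43.3 CPM (SD, n = 3, log2 fold change −1.09, edgeR adjusted p = 4.82e-05), a call that library size alone took below the 2-fold limit. On the adjusted p alone 4 of the 10 fell, Slc22a6 among them. Over all genes tested, 0.211% fell past the threshold and 4.25% on the adjusted p alone, with a median of 0.01. The most abundant of the 10 markers, Slc34a1, the luminal phosphate transporter, went from 8599 ± 413 to 5075 ± 168 CPM, with a log2 fold change of −0.76 and an edgeR adjusted p of 0.000158. Of 6 markers of the late segment S3, 1 fell on the adjusted p alone, Slc7a13, an amino acid transporter, at −0.75 (edgeR adjusted p = 0.000334). The most abundant, Atp11a, gave −0.23 (edgeR adjusted p = 0.044). The list did not move one way, since 3 of its 6 genes had fitted values above 0 and 3 below, with a median of 0.04. Markers of the loop and distal nephron gave 0 calls of 6 in edgeR and in the DESeq2 Wald test, and 1 had an unadjusted p under 0.05. Their median was 0.05, and the most abundant, Umod (uromodulin), gave 0.06. The part of these segment shifts in the transporter levels was not tested.

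Because reads per gene grow with gene length, levels were compared between genes per kilobase. The length behind the deposited RPKM values could be worked out from the counts up to a constant and was set against GENCODE M21, since the annotation the authors used is not given in the sources used here. Among 18002 genes whose transcripts share exon bases in GENCODE M21, the length behind the RPKM equalled, within 0.1%, the sum over the exons of every transcript for 28.8% and the merged exons for 0.855%. For Slc2a9 it was 24222 bases against 5083 merged exon bases, and for Slc5a10 it was 8446 against 2365. For 5 of the 10 members, Slc2a3, Slc2a5, Slc2a9, Slc2a12 and Slc5a10, the length matched that sum, and for the other 5 it matched neither. A gene counted over many transcripts gets a low RPKM in this way, so levels are given here as CPM per kilobase of merged exons, a choice made after seeing the data. Folds of a gene between genotypes do not depend on its length.

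On this scale Slc5a2 led in TG− mice with 236 ± 3.26 CPM per kilobase (SD, n = 3), ahead of Slc5a10 with 53.8 ± 2.26 and Slc2a2 with 42.4 ± 0.993. Slc2a5 with 22.6 ± 2.68, Slc5a1 with 16.4 ± 1.17 and Slc2a1 with 11.0 ± 1.14 CPM per kilobase came next. Slc2a4, Slc2a12 and Slc2a9 lay at 7.14, 6.36 and 4.50, and Slc2a3 at 0.228. No neighbours in this order overlapped among the 3 TG− mice. In TG+ mice Slc2a1 stood at 53.3 ± 15.5 CPM per kilobase, beside Slc2a2 at 47.9 ± 3.95 and Slc2a5 at 41.9 ± 9.91, and these 3 neighbours overlapped. Slc5a2, at 216 ± 8.62, and Slc5a10, at 115 ± 11.8, stayed ahead of them on this scale. On the RPKM scale Slc5a10 came below Slc2a2 in both genotypes, with 15.2 against 43.7 RPKM in TG− mice and 31.7 against 48.2 RPKM in TG+ mice. In TG+ mice its RPKM mean was also below that of Slc2a1, at 35.4, with overlapping ranges, and in TG− mice its range overlapped that of Slc2a5.

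**Figure D3:**
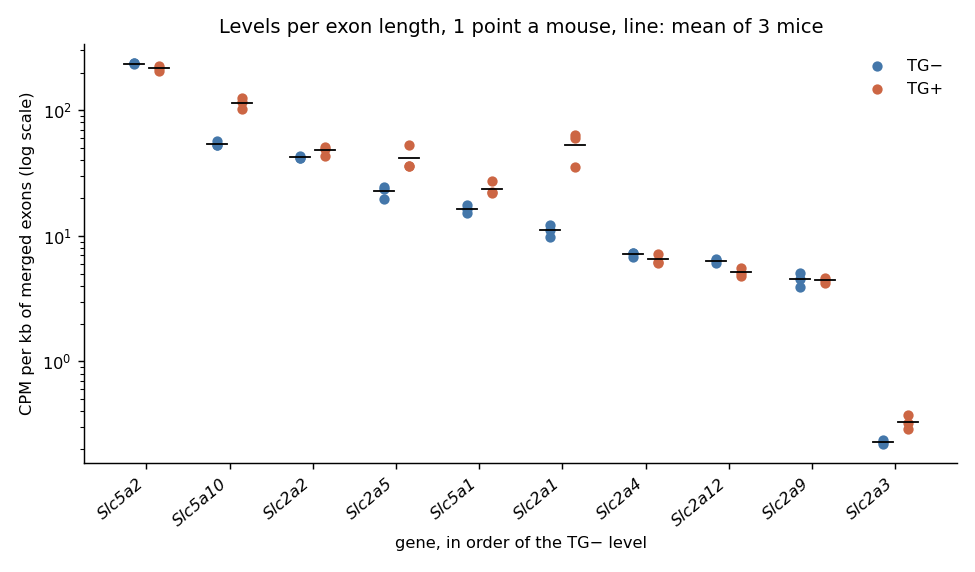
CPM per kilobase of merged exons on a log axis for each mouse, with genes in the order of their TG− level and lines at the mean of 3 mice. Slc2a1 moves from sixth place in TG− mice, at 11.0, to the level of Slc2a2 and Slc2a5 in TG+ mice, at 53.3.

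The summed level of the 7 GLUT genes was 94.3 ± 3.38 CPM per kilobase in TG− and 160 ± 3.94 in TG+ mice (SD, n = 3), with no overlap. That of the 3 SGLT genes was 306 ± 0.434 and 355 ± 11.4, also with no overlap. Slc2a1 made up 13.3, 10.5 and 11.4% of the GLUT sum in the TG− mice and 40.2, 22.8 and 36.9% in the TG+ mice. Slc2a2 made up 45.0 ± 0.905% and 30.0 ± 2.45%, while its own mean level was 42.4 and 47.9 CPM per kilobase. Slc5a10 made up 17.6 ± 0.731% and 32.3 ± 2.50% of the SGLT sum, and Slc5a2 77.0 ± 1.09% and 61.0 ± 3.09%. Each of these 6 sums and shares separated the genotypes, and each gave an exact permutation p of 0.1, the smallest that 3 against 3 mice allow. The share of Slc2a5 in the GLUT sum, 24.0 ± 2.16% and 26.4 ± 6.84%, overlapped between genotypes.

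**Figure D4:**
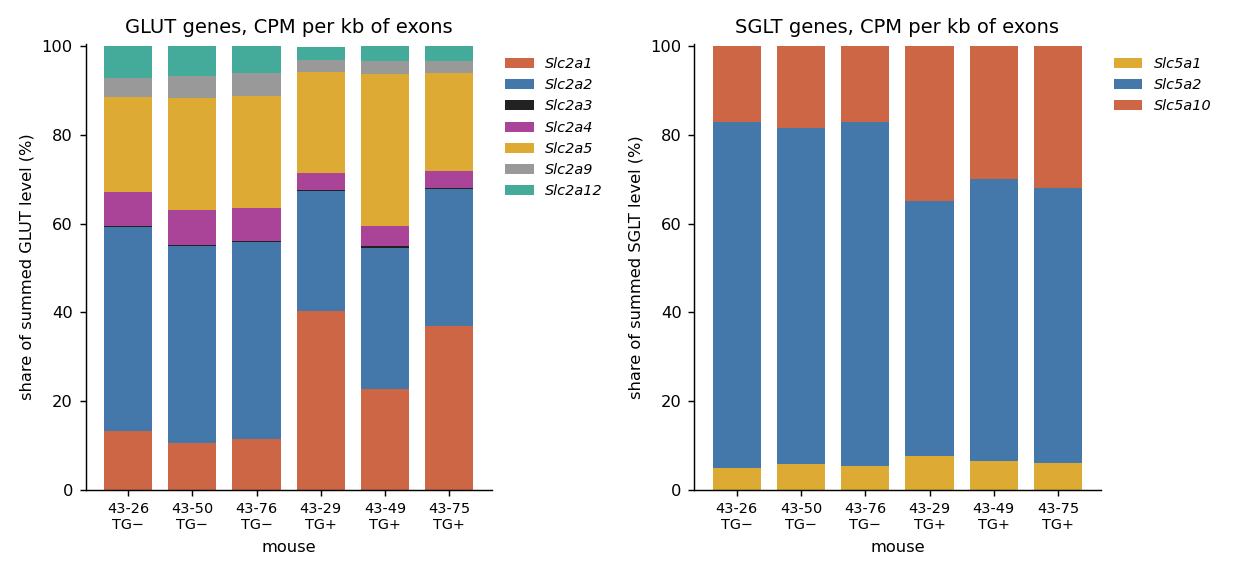
Share (%) of each gene in the summed level of the GLUT genes (left) and of the SGLT genes (right) per mouse, in CPM per kilobase of merged exons. Slc2a1 takes between 22.8 and 40.2% of the GLUT sum in TG+ mice and between 10.5 and 13.3% in TG− mice.

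Within each mouse the late and early transporters were also compared as ratios of the deposited RPKM. The log2 ratio of Slc2a1 to Slc2a2 was −2.39, −2.69 and −2.56 in the TG− mice and −0.04, −1.09 and −0.35 in the TG+ mice. The TG+ mice all exceeded the TG− mice, by 2.06 on the log2 scale between means (pooled SD 0.40, exact permutation p = 0.1, 2-sided). The log2 ratio of Slc5a1 to Slc5a2 was −3.68, −3.45 and −3.58 in the TG− mice and −2.64, −3.0 and −3.07 in the TG+ mice. The genotypes again did not overlap, with a difference of 0.66 (pooled SD 0.18, exact permutation p = 0.1, 2-sided). On the RPKM scale Slc2a1 stayed below Slc2a2 in every TG+ mouse, whereas on merged exons its mean lay above that of Slc2a2. Which of the pair is higher thus depends on the length used, and the difference between genotypes does not.

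The other 15 genes of the SLC2 and SLC5 families gave 0 calls at the threshold in edgeR, among 10 that were tested. The DESeq2 Wald test also gave 0, and 3 were higher and 3 lower at an unadjusted p under 0.05 in edgeR. On the adjusted p alone 0 rose and 2 fell, both named here after their values were seen, and 1 fell in each fit that leaves out 1 mouse, other than 43-26. These were Slc5a11, a myo-inositol carrier, from 67.4 ± 3.38 to 39.3 ± 0.73 CPM (SD, n = 3, log2 fold change −0.78, edgeR adjusted p = 0.000104), and Slc2a8, an intracellular GLUT, at −0.40 (edgeR adjusted p = 0.00429). The most abundant was Slc5a12, a lactate carrier that is also among the early proximal tubule markers, with 489 ± 35.0 and 449 ± 76.6 CPM and a log2 fold change of −0.12 (edgeR adjusted p = 0.512). The remaining 5, Slc2a7, Slc5a4a, Slc5a4b, Slc5a5 and Slc5a7, had at most 9 reads in any library and were not tested. The list's median log2 fold change was −0.04.

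The lists of genes around the transporters were described in the same way. Of 12 genes for the phosphorylation and dephosphorylation of glucose and for fructose use, 2 passed the threshold, both higher. Hk2 (hexokinase 2, which traps glucose as its 6-phosphate) had 0.858, 0.438 and 0.594 CPM in the TG− mice and 45.9, 42.6 and 45.9 CPM in the TG+ mice. Its groups lay far apart, with a log2 fold change of 6.16 (SE 0.17, edgeR adjusted p = 1.87e-06). On the adjusted p alone 5 of the 12 rose, these 2 included, and 1 fell. The count of 5 was 3 in each fit that leaves out 1 mouse, other than 43-49, and the 1 that fell was lost without 43-50, 43-76 or 43-29. Also among those that rose on the adjusted p alone, and named after their values were seen, were Hk1 at 0.63, Slc37a4 (the glucose 6-phosphate translocase) at 0.33 and Khk (ketohexokinase, which phosphorylates fructose) at 0.33, whose adjusted p of 0.00999 in edgeR just passed. Sord (sorbitol dehydrogenase, which makes fructose from sorbitol) fell, from 1157 ± 58.1 to 861 ± 50.0 CPM (SD, n = 3, log2 fold change −0.43, edgeR adjusted p = 0.00327).

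Of 19 partners and regulators of these transporters, such as scaffold proteins, the sodium pump and transcription factors, 0 passed the threshold in edgeR or in the DESeq2 Wald test. At an unadjusted p under 0.05 in edgeR, 4 had higher and 6 had lower levels. On the adjusted p alone 1 rose and 3 fell, and these 4 are named after their values were seen. By library size alone 2 rose and 0 fell. The count of 3 that fell was 1 without 43-26 and 0 without any other single mouse. The count of 1 that rose was 0 without 43-26, 43-50, 43-29 or 43-49. Without 43-75 that count was 1, but for a gene past the 2-fold limit, and so not for Arrdc4, the gene that rose in the main fit. Arrdc4, an arrestin-domain protein related to the GLUT1 regulator Txnip, rose by 0.46 on the log2 scale (edgeR adjusted p = 0.00685). Fxyd2 (the sodium pump's gamma subunit) at −0.33, Slc9a3 (the luminal sodium-proton exchanger NHE3) at −0.49 and Aspscr1 (TUG, which tethers GLUT4 vesicles) at −0.31 fell. The list's median was −0.06.

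Over the 6 mice, the genes whose log2 CPM followed that of Slc2a1 most closely among 16170 genes compared were Gm5863 (r = 0.9991), Hsd11b1 (0.9990), Fbxo4 (0.9987), Rpl21-ps8 (0.9984) and Gm9790 (0.9982). For Slc5a2 they were Elk1 (r = 0.9953), Sdhaf4 (0.9894), and Pcdh7, Amer1 and Dyx1c1 (0.9851 each). These points share the split into genotypes and the library sizes, and with 6 points such values are a description.

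**Figure D5:**
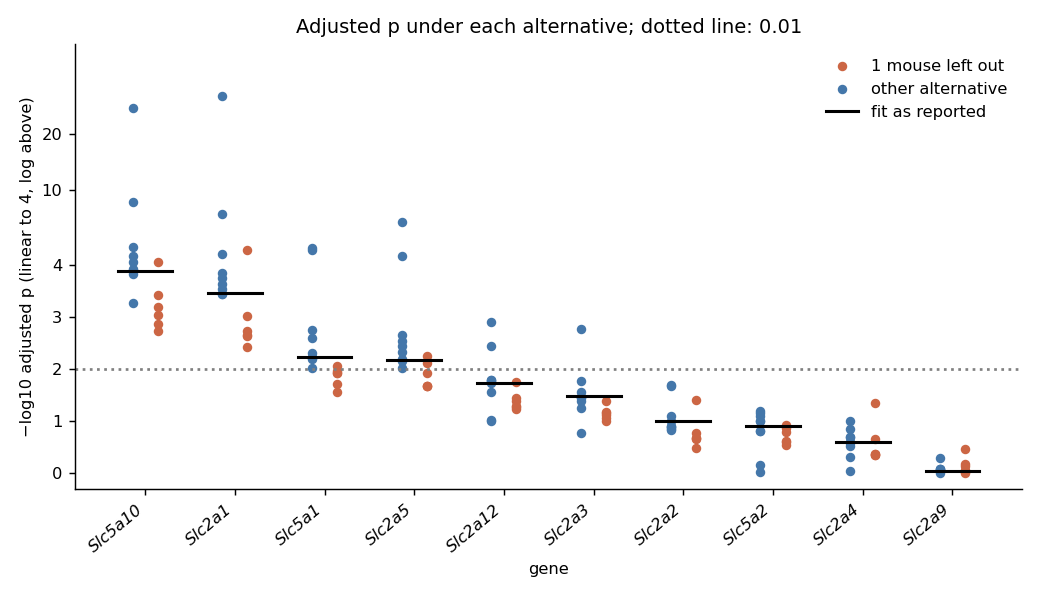
Adjusted p of each gene as −log10 (linear to 4, log above), as reported (line) and under each alternative (points), with the limit of 0.01 dotted. Slc5a10 and Slc2a1 stay above the line throughout, at adjusted p of at most 0.00182 and 0.0037, and Slc5a1 and Slc2a5 cross it when single mice are left out.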

How the data were processed

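Kidney cortex RNA of 6 mice was sequenced by the authors as 51-bp single-end reads and analysed mainly with the Tuxedo tools. The submitters' processing notes name mm9, and the counting program, annotation and strand setting are not given in the sources used here. The authors deposited read counts per Ensembl gene, without normalization, and RPKM values, which were proportional to the count plus 1. Columns of log2 RPKM (12) and of the authors' own fold changes, p-values and q-values were not used.

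Counts of the 2 kidneys of each mouse were summed (3 TG+ against 3 TG− mice), filtered with filterByExpr, normalized by TMM (factors 0.944 to 1.07) and tested by quasi-likelihood in edgeR (R 4.3.3, edgeR 4.0.16, limma 3.58.1), adjusted by the Benjamini-Hochberg method over 19399 genes. SE is the size of the log2 fold change divided by the square root of F. The procedure was tested on simulated data. The sample labels name no litter or batch, while the deposited table's name lists 3 pairs, 43-26 with 43-29, 43-49 with 43-50 and 43-75 with 43-76, without saying what they share. Ratios and shares were tested over the 20 assignments of mice. Symbols and positions came from GENCODE M21 (GRCm38) for 32642 of 37681 genes by Ensembl identifier, promoters from RefSeq (GRCm38.p6). Python 3.11.15, numpy 2.4.6, pandas 2.3.3, scipy 1.17.1 and matplotlib 3.10.9 were used.

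The members and lists were chosen with earlier results of these data known. Named are all 10 members, of each other list the genes past the threshold and its most abundant gene in TG− mice, and the 5 genes of at least 1 CPM most like Slc2a1 and Slc5a2. Some genes that this rule names are not reported here. Alternatives were other scalings (DESeq2 1.42.0 size factors, upper quartile, library size alone), the DESeq2 Wald test, no filter on low counts, single kidneys, a block for the 3 pairs, other limits and each mouse left out. CPM per kilobase of merged exons as the scale of levels and shares, with the deposited RPKM as its alternative, and the alternatives for the other lists were chosen after seeing the data.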

Additional observations from a re-analysis of the deposited data

Results flagged for a closer look

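Within a genotype, 2 of the 20 groups of 6 libraries tested for a single library far from the others (the gap to its neighbour over the whole range, against the 95% limit of Dixon's test) held such a library, and chance alone gives about 1 in 20 groups. For Slc2a9 it was kidney 2 of the TG+ mouse 43-49, at 25.8 CPM, where the ratio was 0.633 and the other TG+ libraries lay at 21.2 CPM or more. For Slc5a2 it was kidney 1 of the TG− mouse 43-50, at 651 CPM, where the ratio was 0.759 and the highest TG− library held 696 CPM. The other kidney of these mice held 21.3 CPM of Slc2a9 and 696 CPM of Slc5a2.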

How the results depend on the processing

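Slc2a1 and Slc5a10 passed the threshold under all 15 alternative fits, with log2 fold changes of 2.11 to 2.49 and 1.01 to 1.21. The number of members past the threshold was 1 at a fold limit of 4 or 0.25, 3 by library size alone (with Slc2a5 at 1.01), and 2 in each fit that leaves out 1 mouse. Library size alone also moved the median of all genes from 0.01 to 0.13, Slc2a2 to 0.30, Slc2a4 to −0.02 and Slc2a12 to −0.18, none of them past the adjusted p. The number on the adjusted p alone lay between 2 and 6 over the alternatives and between 2 and 4 when 1 mouse was left out. Slc2a5 lay between 0.67 and 0.97, and Slc5a1 between 0.43 and 0.59, when 1 mouse was left out, and both lost the adjusted p in the fits named above, each with fewer mice. With each kidney as its own library, which counts 2 kidneys of a mouse as independent, Slc2a3 (0.55, adjusted p 0.00167 in edgeR) and Slc2a12 (−0.29, 0.00126) passed the adjusted p, and Slc2a12 also did in the DESeq2 Wald test (−0.32, 0.00366). Slc2a9 turned sign to 0.10 by library size alone and to 0.06 without the TG− mouse 43-76, while over all fits that leave out 1 mouse it lay between −0.12 and 0.06. On the deposited RPKM, Slc2a1 made up 9.6 and 29.2% of the GLUT sum in TG− and TG+ mice, Slc2a2 55.8 and 39.9%, Slc5a2 81.4 and 68.1% of the SGLT sum, and Slc5a10 11.7 and 22.8%. Both ratios kept their direction when 1 mouse was left out, at 1.83 to 2.35 and 0.53 to 0.75. Of the other lists, early proximal tubule markers past the threshold numbered 0 by library size alone and myeloid markers 2. Erythroid markers numbered 0 with each kidney as its own library, with kidney 1 or kidney 2 alone, with the block for pairs and without any 1 mouse. Adipocyte markers numbered 1 with the block for pairs. With 1 mouse left out, partners and regulators, myeloid and adipocyte markers each numbered between 0 and 1, at 1 without 43-75, 43-26 and 43-29, and the cause was not tested.

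The submitters name 3 pairs of a TG+ and a TG− mouse without saying what they share, and the deviations from the group means correlated at 0.34, 0.30 and −0.02 in these pairs. With a block for these pairs, 2 members passed the threshold and 4 the adjusted p alone, and no member's call changed. Depth limits Slc2a3, whose level rests on few reads.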
